A study of Mus musculus with 12 samples.

Results

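Voltage-gated calcium channels are protein complexes of the cell membrane that open when the membrane depolarizes and let calcium into the cell. The genes described here are 10 that encode channel subunits: the pore-forming Cacna1a, Cacna1b, Cacna1c, Cacna1d, Cacna1e, Cacna1g and Cacna1h, the alpha2delta subunits Cacna2d1 and Cacna2d2, and the beta subunit Cacnb2. Their members are all probe sets (groups of oligonucleotide probes that read a transcript) whose platform annotation names 1 of these genes and no other, which gave 27 of the 45101 probe sets on the array and 10 of the 18193 genes named. Of these, 20 probe sets of 8 genes reached the overall median of the values, 5.74 on the log2 scale, in at least 2 arrays and were tested. Cacna1e and Cacna1g, with 3 probe sets in all, lay below that limit and are given by their values.

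Measurements came from Affymetrix Mouse Genome 430 2.0 arrays of pituitary tissue, 8 from heterozygous POMC KO mice, 2 from homozygous POMC KO mice and 2 from normal mice. POMC KO mice lack 1 or both copies of Pomc, the gene of the precursor of corticotropin and melanocyte-stimulating hormone, and the KO tissue was pituitary tumor, per the study's methods. The mutation was bred through the germline, none of the mice was treated, and age, sex and strain of the arrayed mice are not given in the sources used here. The study's methods name pooled normal mouse pituitary as the reference, and whether the 2 normal arrays held pools is not settled here.

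In pituitary endocrine cells, calcium entering through these channels during spontaneous action potentials is what triggers hormone release. L-type channels (Cacna1c, Cacna1d) carry much of that calcium, P/Q-, N- and R-type channels (Cacna1a, Cacna1b, Cacna1e) are best known from nerve terminals, and T-type channels (Cacna1g, Cacna1h) open at more negative voltages and help to set the firing pattern. The alpha2delta subunits sit on the outer face of the membrane and the beta subunits on the inner face, and both raise the number of channels at the surface.

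The clearest difference from normal pituitary was in Cacna1h, the pore of a T-type channel, with a log2 fold change of -2.22 (SE 0.16) in heterozygous tumors and -2.10 (SE 0.23) in the homozygous tumor sample. Cacna1a, the pore of P/Q-type channels, was higher in heterozygous tumors at its brightest probe set by 1.04 (SE 0.15). Of the 5 probe sets of Cacna2d1, an alpha2delta subunit, 2 rose past the 2-fold limit in heterozygous tumors, by 1.43 and 1.06 on the log2 scale, while the brightest differed by 0.18. The L-type genes, Cacna1b, Cacna2d2 and Cacnb2 were called at no probe set in any comparison of the 7 averaged samples.

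The alpha2delta genes are shown by their promoters, because Cacna2d1 was the only gene with a called probe set for which the RefSeq promoter table had an entry, and Cacna2d2 is the member of the same subunit class in which none was called. Each sequence runs from 250 bases before to 50 bases after the annotated start, 5′ to 3′ on the gene's strand, in RefSeq's build GRCm38.p6. Capitals mark GC boxes, the letters GGGCGG or, on the other strand, CCGCCC, with overlapping matches included.
Cacna2d1, chr5:15934441-15934740, plus strand: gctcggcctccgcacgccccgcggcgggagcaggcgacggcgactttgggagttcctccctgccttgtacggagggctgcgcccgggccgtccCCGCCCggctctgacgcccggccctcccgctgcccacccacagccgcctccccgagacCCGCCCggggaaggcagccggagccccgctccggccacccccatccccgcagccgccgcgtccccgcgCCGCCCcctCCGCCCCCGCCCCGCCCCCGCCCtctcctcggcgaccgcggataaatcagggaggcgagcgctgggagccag
Cacna2d2, chr9:107399630-107399929, plus strand: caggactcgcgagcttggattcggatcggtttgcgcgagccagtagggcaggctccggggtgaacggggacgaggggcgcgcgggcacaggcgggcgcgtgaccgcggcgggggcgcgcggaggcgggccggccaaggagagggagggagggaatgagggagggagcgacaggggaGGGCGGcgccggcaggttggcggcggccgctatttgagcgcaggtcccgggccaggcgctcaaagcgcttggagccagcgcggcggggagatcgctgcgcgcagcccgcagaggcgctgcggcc
The Cacna2d1 window held 7 GC boxes, a number reached by 206 of the 32851 promoters in the table (0.627%), and the Cacna2d2 window held 1. Many GC boxes were not particular to Cacna2d1: of the uncalled members, Cacna1c and Cacna1d each had a window with 6, beside others with none, Cacna1b had 3 and Cacnb2 at most 1. A GC box of either strand was present in 35.7% of all those promoters. Both windows were rich in G and C, at 80% in Cacna2d1 and 75.7% in Cacna2d2 against a median of 52.7% over all promoters, and held 42 and 43 CpG dinucleotides against a median of 7. The TATA box letters TATAAA and the cAMP response element TGACGTCA, searched on both strands, were in neither window, and 13.6% and 1.79% of all promoters held them. These letter matches are a description and no test links them to the expression values. Of the 10 genes, 7 had an entry, and those without one were Cacna1a, Cacna1g and Cacna1h.

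The 10 tumor arrays made up 5 couples of nearly identical arrays with neighbouring numbers, 4 heterozygous (pairs 1-2, 3-4, 5-6 and 7-8) and 1 homozygous. Within a pair the correlation across probe sets was 0.997 and at most 2 probe sets differed over 2-fold, whereas arrays of different heterozygous pairs correlated at 0.964 to 0.983 and the normal arrays at 0.986. The arrays of a pair were averaged into 1 sample, although the series design counts each array as 1 mouse, and whether a pair is 1 tumor arrayed again is not settled here. This gave 4 heterozygous samples, 1 homozygous sample and 2 normal samples, and the p-values measure the spread between these, which may in part be technical. Pomc read 15.08 and 15.11 in normal pituitary, 15.15 to 15.30 in heterozygous samples and 7.18 in the homozygous one. The homozygous value fits its label. The heterozygous values do not show the loss of 1 copy, and they lie near the highest value of all arrays, 15.31. Gh and Prl, hormones of other pituitary cells, lay between 13.32 and 15.04 in all 7 samples. Xist, transcribed in female cells, was near 11 in heterozygous samples 3-4 and 7-8 and in the homozygous sample (10.93, 11.25 and 11.20) and between 4.57 and 5.07 in the other 4, so normal pituitary and the homozygous sample differed in it.

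Values below are log2 signals after Robust Multichip Average normalization, and those of heterozygous tumors are given in the order of pairs 1-2, 3-4, 5-6 and 7-8. Levels are compared within a probe set, except in the summed signals of marker lists. Those sums add different probe sets, and the part of 1 gene in a sum does not rank transcripts. A probe set was called when limma gave an adjusted p under 0.05 and the fold change was over 2, that is over 1 on the log2 scale. Of the 8 genes tested, each read by its brightest tested probe set, 2 were called in heterozygous tumors against normal pituitary, Cacna1a higher and Cacna1h lower, where 10.1% of all 12316 genes tested were called (5.53% higher, 4.55% lower). Of the 20 probe sets, 4 were called, 3 higher and 1 lower, against 8.68% of all 24486 probe sets tested (4.91% higher, 3.77% lower). The adjusted p alone was under 0.05 for 7 of the 20, against 22.1% of all. In the homozygous sample against normal pituitary 1 of 8 genes and 1 of 20 probe sets were called, both of them Cacna1h, against 2.74% of genes and 2.33% of probe sets. Cacna1h passed the filter through the normal arrays alone, and both called probe sets of Cacna2d1 passed it through tumor arrays alone. The direction of these calls was thus fixed by the filter, and setting them against the shares is no test of it. With the 12 arrays as separate samples, the called genes and probe sets of heterozygous tumors were again 2 and 4, with Cacna1a, Cacna1h and Cacna2d1, and the homozygous probe sets were 3, of Cacna1h and Cacna2d1. The median log2 fold change of the tested members in heterozygous tumors was -0.01 over genes and 0.12 over probe sets, beside -0.00 and 0.03 over all tested.

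**Figure D1:**
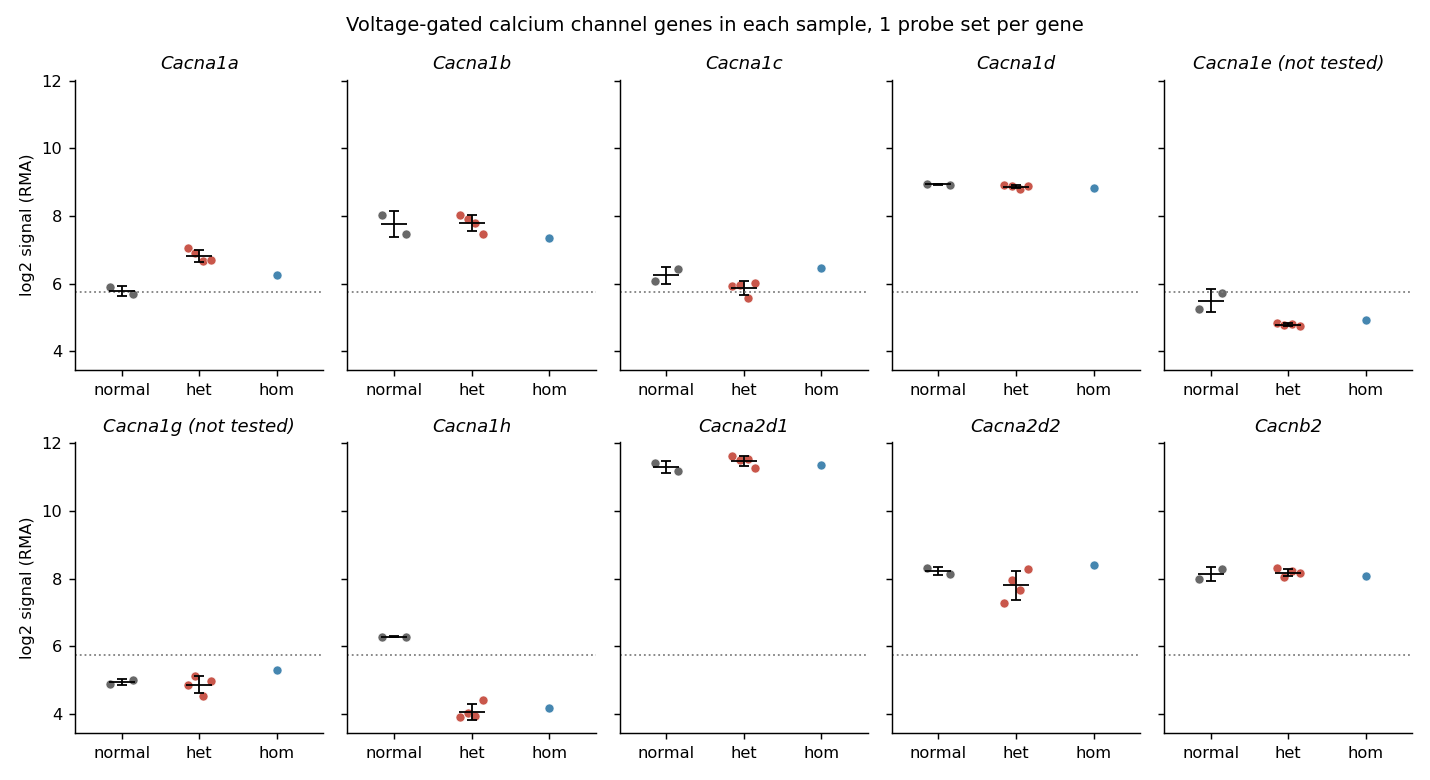
Log2 signal of the brightest probe set of each of the 10 genes (y axis) by group (x axis). Each point is 1 sample (2 normal, 4 heterozygous and 1 homozygous), long bars are group means and short bars 1 SD, and the dotted line is the median of all values, 5.74. Cacna1h is the gene whose normal samples (6.28 and 6.29) lie far above every tumor sample (3.90 to 4.41), and Cacna1a is higher in all 4 heterozygous samples than in normal pituitary.

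**Figure D2:**
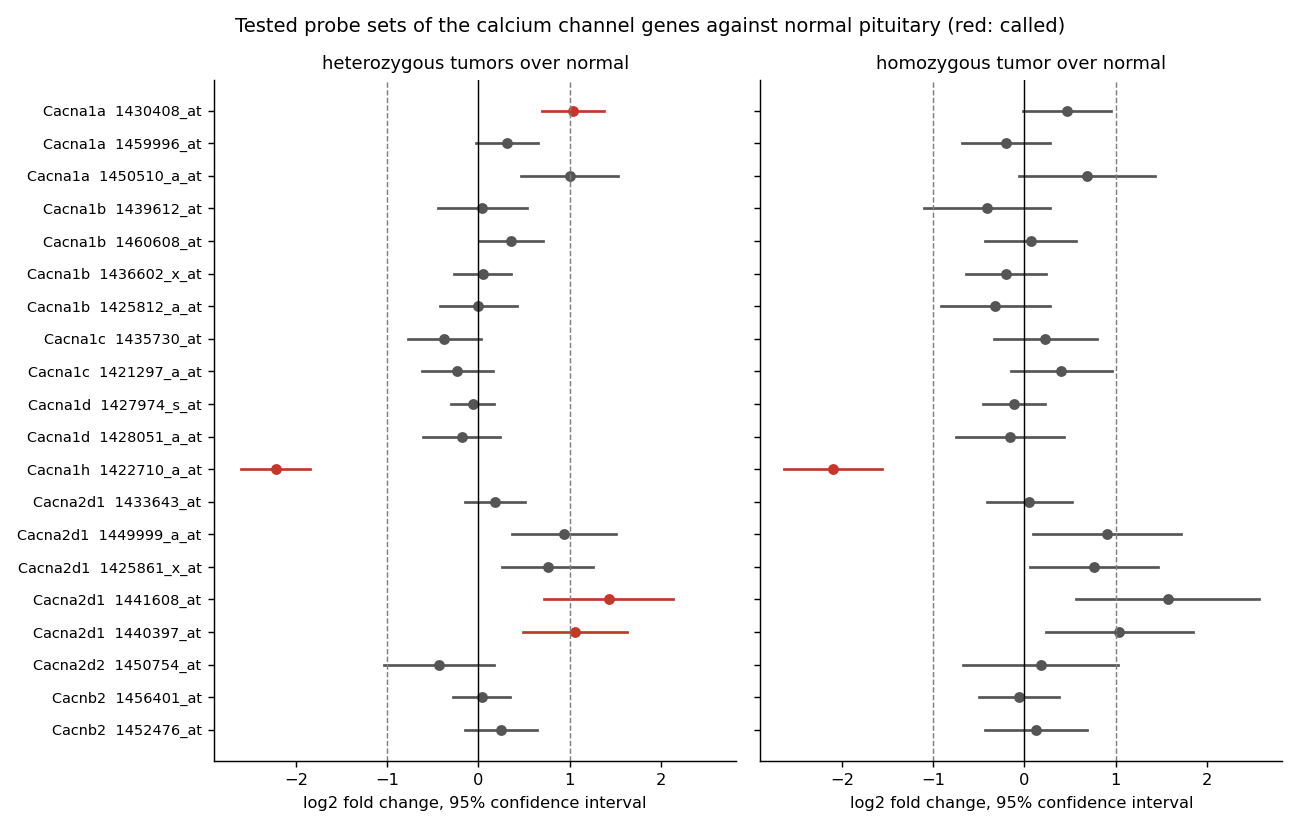
Log2 fold change against normal pituitary (x axis) of the 20 tested probe sets (y axis), with 95% confidence intervals from limma, for heterozygous tumors (left) and the homozygous sample (right). Red marks the called probe sets, and dashed lines mark a 2-fold change. The left panel has 4 red points and the right panel 1, Cacna1h.

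The L-type genes were close to normal pituitary in tumors of both genotypes. Cacna1d, the pore of the L-type channel that opens at more negative voltages, read 8.94 and 8.93 in normal pituitary, 8.92, 8.89, 8.80 and 8.87 in heterozygous samples and 8.82 in the homozygous one at its brightest probe set, 1427974_s_at. The tumor values all lay below the normal ones, but by little. Its log2 fold change was -0.06 in heterozygous tumors (95% confidence interval -0.30 to 0.18) and -0.12 in the homozygous sample (-0.45 to 0.22), with limma adjusted p of 0.696 and 0.725. The other Cacna1d probe set, 1428051_a_at, ranged from 6.63 to 6.88 in normal pituitary and from 6.32 to 6.92 in tumors, so its groups overlapped.

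Cacna1c, the L-type pore also found in heart and smooth muscle, was not called in any comparison, and its direction against normal pituitary was not settled in either genotype. At 1435730_at it read 6.06 and 6.42 in normal pituitary, 5.92, 5.97, 5.57 and 6.02 in heterozygous samples and 6.47 in the homozygous one. At 1421297_a_at the values were 6.26 and 5.87 in normal pituitary, 5.81, 5.89, 5.60 and 6.05 in heterozygous samples and 6.47 in the homozygous one. The homozygous sample was the highest of the 7 at both probe sets, and the heterozygous samples lay below both normal samples at the first and overlapped them at the other. Against normal pituitary the log2 fold changes in heterozygous tumors were -0.37 (95% confidence interval -0.77 to 0.03) and -0.23 (-0.62 to 0.16). In the homozygous sample they were 0.23 (-0.34 to 0.79) and 0.41 (-0.15 to 0.96). Between the genotypes the log2 difference, homozygous over heterozygous, was 0.60 (95% confidence interval 0.08 to 1.11) and 0.63 (0.13 to 1.14), with limma adjusted p of 0.454 and 0.413.

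Among the P/Q-, N- and R-type genes, Cacna1a was higher in heterozygous tumors and the others passed no test. At 1430408_at, its brightest probe set, Cacna1a read 5.90 and 5.69 in normal pituitary, 7.04, 6.90, 6.68 and 6.69 in heterozygous samples and 6.25 in the homozygous one. All 4 heterozygous samples lay above the homozygous one, which lay above both normal samples. The log2 fold change was 1.04 in heterozygous tumors (SE 0.15, limma adjusted p = 0.00317), a 2.05-fold difference just past the limit. In the homozygous sample it was 0.46 (SE 0.21, adjusted p = 0.296), and the difference between the genotypes was -0.57 (95% confidence interval -1.01 to -0.13, adjusted p = 0.392).

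The other Cacna1a probe sets gave differences of other sizes. At 1450510_a_at the values were 5.56 and 5.15 in normal pituitary, 6.16, 6.53, 6.72 and 6.01 in heterozygous samples and 6.04 in the homozygous one, with every tumor sample above both normal samples. Its fold change in heterozygous tumors was 1.999 (adjusted p = 0.0197), short of the 2-fold limit. It reached the overall median in 10 of 12 arrays, the tumor arrays alone. At 1459996_at the normal samples read 5.85 and 6.18, the heterozygous ones 6.22 to 6.53 and the homozygous one 5.81, and the log2 fold change in heterozygous tumors was 0.31 (adjusted p = 0.164). The fourth probe set, 1444455_at, was between 3.93 and 4.22 in all samples and was not tested.

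The Cacna1a call lay close to the fold limit. The log2 fold change was 0.96 without heterozygous pair 1-2, 0.93 without normal array 2, 0.99 after repeated quantile normalization, 0.94 with arrays centred on housekeeping genes and 0.66 with the median over its tested probe sets, each under the limit of 1, while the adjusted p lay between 0.000102 and 0.0358 in all 15 fits. The housekeeping genes were not all level, as Pgk1 averaged 11.93 in normal pituitary and 12.98 in heterozygous samples, and B2m 12.41 and 11.73. Some markers of cell types and of proliferation were called higher in heterozygous tumors, where 5.53% of all genes were. These were 4 of 7 macrophage, 3 of 3 proliferation, 1 of 6 neuron and 1 of 4 pericyte and smooth muscle markers. Of 6 endothelium markers 0 were called by limma or by the one-way test of the study's methods, and the 1 at an unadjusted p under 0.05, Kdr, was lower (-0.48). Of 7 melanotroph and corticotroph markers 1 was called higher, Pax7, a transcription factor of melanotrophs, which read 9.92 and 9.50 in normal pituitary, 11.47, 11.28, 11.18 and 10.84 in heterozygous samples and 10.38 in the homozygous one (heterozygous log2 fold change 1.48, SE 0.20, limma adjusted p = 0.00262). As for Cacna1a, all heterozygous samples lay above the homozygous one and that above both normal samples. That order was not particular to Pax7. It held for the macrophage markers Cd68, Lyz2, C1qa, Csf1r and Adgre1, the neuron markers Rbfox3 and Syt1 and the smooth muscle marker Acta2. The proliferation marker Cdk1, the sodium channel genes Scn2a and Scn3b and the housekeeping gene Pgk1 had it too. The macrophage markers Cd14 and Aif1 and the proliferation markers Mki67 and Top2a did not. The summed linear signal of the macrophage markers was 744 to 888 in normal pituitary, 3495 to 6689 in heterozygous samples and 2501 in the homozygous one, and that of the proliferation markers was 334 to 386, 1337 to 2754 and 1400. The summed signal of the melanotroph and corticotroph markers was 40265 to 40809, 42081 to 48327 and 5581. Pomc, the deleted gene, made up most of the normal and heterozygous sums and read 7.18 in the homozygous sample. The other tested markers of this list had log2 fold changes there between -0.45 (Pcsk1) and 0.80 (Crhr1) against normal pituitary. The part of these cells in the Cacna1a values was not tested. In such bulk samples, fewer or more cells of a type and a lower or higher RNA level per cell cannot be told apart.

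**Figure D3:**
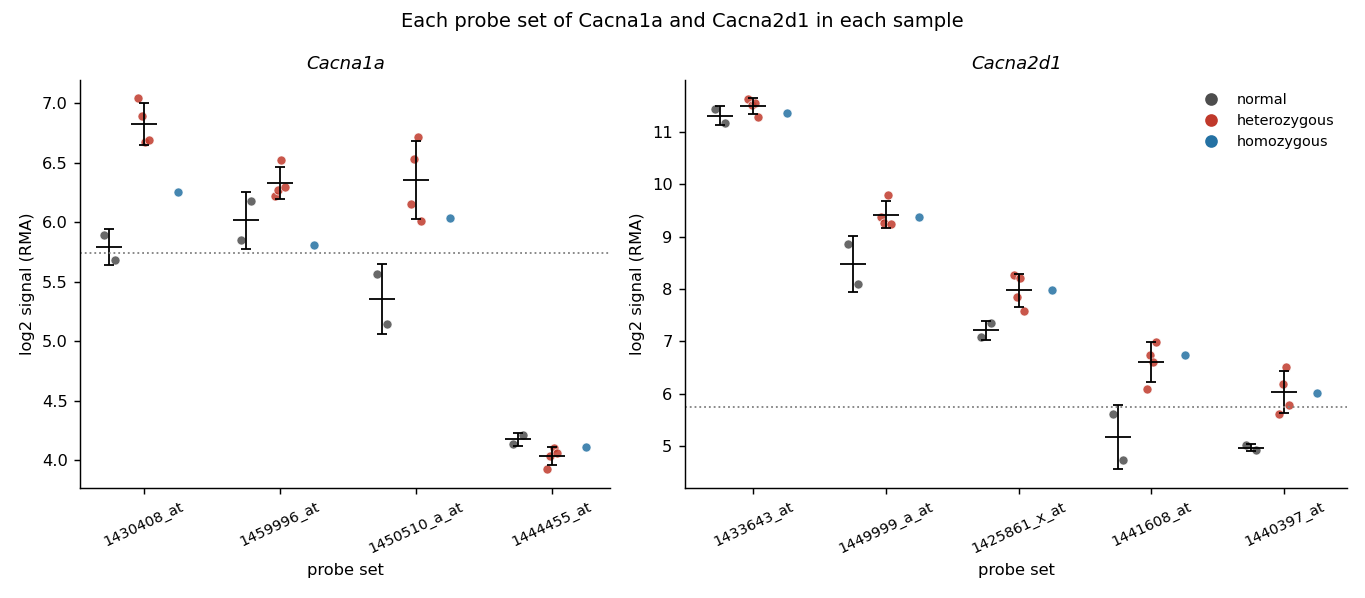
Log2 signal (y axis) of each probe set (x axis) of Cacna1a (left) and Cacna2d1 (right), grey for normal pituitary, red for heterozygous and blue for homozygous tumors. Each point is 1 sample, bars are group means with 1 SD, and the dotted line is the median of all values, 5.74. The brightest probe set of Cacna2d1 barely differs between the groups, and at the other 4 every tumor sample lies above both normal samples.

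Cacna1b, the pore of N-type channels, did not pass the test at any of its 4 probe sets. At the brightest, 1439612_at, it read 8.04 and 7.48 in normal pituitary, 8.03, 7.91, 7.79 and 7.47 in heterozygous samples and 7.35 in the homozygous one. The heterozygous values spanned the normal ones, and the homozygous sample was the lowest. Over the 4 probe sets the log2 fold change in heterozygous tumors ran from -0.00 to 0.35, and the 95% confidence intervals together covered -0.44 to 0.71. In the homozygous sample it ran from -0.41 to 0.07, and that sample was below every heterozygous sample at all 4 probe sets.

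Cacna1e, the pore of R-type channels, was near or below the median of all values and was not tested. Its brighter probe set, 1436260_at, read 5.25 and 5.74 in normal pituitary, 4.84, 4.77, 4.80 and 4.75 in heterozygous samples and 4.93 in the homozygous one, so the groups did not overlap. In a fit with no filter on low values the log2 fold change was -0.71 in heterozygous tumors (limma adjusted p = 0.0157) and -0.57 in the homozygous sample (adjusted p = 0.232). The other, 1421692_at, lay between 3.14 and 3.63 in all 7 samples.

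The T-type genes differed from each other. At its brighter probe set, 1422710_a_at, Cacna1h read 6.28 and 6.29 in normal pituitary, 3.90, 4.02, 3.94 and 4.41 in heterozygous samples and 4.19 in the homozygous one. The normal samples were almost identical and the tumor samples of both genotypes lay far below them. The signal was 4.66-fold lower in heterozygous tumors (log2 fold change -2.22, SE 0.16, limma adjusted p = 0.000356) and 4.28-fold lower in the homozygous sample (-2.10, SE 0.23, adjusted p = 0.0102). Between the genotypes the log2 difference was 0.12, with a 95% confidence interval of -0.37 to 0.61. The tumor values behind these folds all lie below the median of all values.

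Only the 2 normal arrays carried this probe set past the filter, so a tested Cacna1h had to be higher there. The second probe set, 1427607_at, was below the filter and showed the same order, with 4.53 and 4.35 in normal pituitary, 3.63, 3.62, 3.74 and 3.82 in heterozygous samples and 3.80 in the homozygous one. With no filter, its log2 fold change was -0.73 in heterozygous tumors (limma adjusted p = 0.00489) and -0.63 in the homozygous sample (adjusted p = 0.101). The call of 1422710_a_at in heterozygous tumors was kept in all 15 fits that tested it, from -2.39 to -2.17, and the call in the homozygous sample was lost without normal array 1 (adjusted p = 0.0602) or normal array 2 (adjusted p = 0.0650), with the fold change at -2.10 and -2.09.

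Many markers of other hormone cells were also called lower in heterozygous tumors, where 4.55% of all genes were. These were 4 of 5 gonadotroph, 4 of 4 thyrotroph, 1 of 2 somatotroph and 2 of 3 lactotroph markers. Gata2 and Foxl2, listed with Tshb and Dio2 as thyrotroph markers, are gonadotroph factors too, so these lists do not fully separate the cells. The single homozygous sample also read far lower at Lhb (log2 fold change -3.25), Fshb (-4.26), Gnrhr (-2.25), Nr5a1 (-1.35), Ghrhr (-3.22), Tshb (-1.44), Gata2 (-2.32) and Foxl2 (-1.36). Differences there were smaller at Cga (-0.43), Dio2 (-0.01), Gh (-0.14), Esr1 (-0.34), Trhr (-0.83) and Prl (0.32). Gh (-0.70), Prl (-0.25) and Cga (-2.19) did not pass the test in heterozygous tumors (limma adjusted p = 0.196, 0.566 and 0.0612). Of the 7 melanotroph and corticotroph markers 2 were called lower in heterozygous tumors, Neurod1, a transcription factor of corticotrophs (-2.84), and Crhr1, the receptor for corticotropin-releasing hormone (-1.44). In the homozygous sample the log2 fold changes of these 2 against normal pituitary were -0.04 and 0.80. The summed linear signal of the gonadotroph markers was 40123 to 40308 in normal pituitary, 2191 to 15565 in heterozygous samples and 21175 in the homozygous one, and that of the thyrotroph markers was 7744 to 8200, 431 to 2015 and 3130. Somatotroph markers summed to 30488 to 30544, 10311 to 28345 and 27109, and lactotroph markers to 29901 to 30321, 15914 to 32937 and 36115. Of the glial and folliculostellate markers, 2 of 6 were called lower in both genotypes, with sums of 1534 to 1717, 1096 to 1562 and 995. Cacna1h was at 4.19 in the homozygous sample and 3.90 to 4.41 in heterozygous samples, all below the median of all values. Cga made up most of the gonadotroph sums, at 14.73 and 14.72 in normal pituitary and 14.30 in the homozygous sample. Lhb and Fshb, at 8.86 and 8.75 in that sample, were far below their lowest normal values of 12.02 and 12.96. The part of these cells in the Cacna1h values was not tested.

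Cacna1g, the pore of another T-type channel, has 1 probe set, 1423365_at, which read 4.88 and 5.02 in normal pituitary, 4.86, 5.12, 4.54 and 4.97 in heterozygous samples and 5.31 in the homozygous one. The heterozygous values spanned the normal ones and the homozygous sample was the highest. It lay below the median of all values in all 12 arrays and was not tested. With no filter its log2 fold change was -0.08 in heterozygous tumors (limma adjusted p = 0.804) and 0.35 in the homozygous sample (adjusted p = 0.551).

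Cacna2d1, an alpha2delta subunit and a target of gabapentin, was higher in tumors at the dimmer of its 5 probe sets and nearly level at the brightest. At 1433643_at, the brightest, it read 11.43 and 11.18 in normal pituitary, 11.63, 11.50, 11.54 and 11.28 in heterozygous samples and 11.36 in the homozygous one. All groups overlapped there, and the log2 fold change of 0.18 in heterozygous tumors (95% confidence interval -0.15 to 0.51, adjusted p = 0.394) did not pass the test. At 1441608_at the normal samples read 5.61 and 4.75, the heterozygous ones 6.09, 6.74, 6.61 and 6.98 and the homozygous one 6.74, so every tumor sample was above both normal samples. Its log2 fold change was 1.43 in heterozygous tumors (SE 0.30, limma adjusted p = 0.0153) and 1.57 in the homozygous sample (SE 0.43, adjusted p = 0.110).

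At 1440397_at Cacna2d1 read 5.02 and 4.92 in normal pituitary, 5.62, 6.20, 6.51 and 5.80 in heterozygous samples and 6.01 in the homozygous one. Again no tumor sample reached down to the normal values, and the log2 fold change in heterozygous tumors was 1.06 (SE 0.24, adjusted p = 0.0211). In the normal arrays this probe set was below the overall median, as was 1441608_at, so both passed the filter through tumor arrays. At 1449999_a_at the values were 8.86 and 8.09 in normal pituitary, 9.37, 9.27, 9.79 and 9.23 in heterozygous samples and 9.38 in the homozygous one. At 1425861_x_at they were 7.09 and 7.34, then 8.26, 7.84, 8.21 and 7.58, then 7.97. Neither overlapped between heterozygous tumors and normal pituitary, and both missed the 2-fold limit with log2 fold changes of 0.94 and 0.76 (adjusted p = 0.0324 and 0.0407).

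The probe sets of Cacna2d1 therefore did not give 1 size of difference, from 0.18 to 1.43 on the log2 scale in heterozygous tumors and from 0.05 to 1.57 in homozygous tissue, where none was called. Which transcripts each one reads was not analysed here. By Affymetrix naming, a name ending in _a_at marks probes shared by alternative transcripts of a gene, and one ending in _x_at or _s_at marks probes that may also match other transcripts. The call at 1441608_at was lost in 2 of 15 fits, without normal array 2 (log2 fold change 0.997, adjusted p = 0.109) and with the replicate block, which held heterozygous pair 1-2 alone (0.91). That at 1440397_at was lost in 6 of 15, by its adjusted p without heterozygous pair 3-4 (adjusted p = 0.0537), normal array 1 (0.105) or normal array 2 (0.119), and by its log2 fold change without pair 5-6 (0.90), with housekeeping centring (0.96) and with the replicate block (0.64). The markers given beside Cacna1a belong to the same comparison, and their part was not tested.

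Cacna2d2, another gabapentin-binding alpha2delta subunit, was called in neither comparison with normal pituitary and was spread widely among the heterozygous tumors (SD 0.42, n = 4). At 1450754_at it read 8.32 and 8.15 in normal pituitary, 7.29, 7.97, 7.67 and 8.28 in heterozygous samples and 8.41 in the homozygous one. The homozygous sample was the highest of all, and heterozygous pair 7-8 lay between the normal samples. The log2 fold change was -0.43 in heterozygous tumors (95% confidence interval -1.03 to 0.17, limma adjusted p = 0.272) and 0.18 in the homozygous sample (-0.68 to 1.03, adjusted p = 0.844). The fit with the replicate number as a block held heterozygous pair 1-2 alone, the lowest of the 4, and counted its 2 arrays as separate samples. The log2 fold change in heterozygous tumors was then -0.95, under the fold limit. With the Xist level as a covariate it was -0.76 (adjusted p = 0.0229). Pairs 3-4 and 7-8, with high Xist (10.93 and 11.25), read higher than pairs 1-2 and 5-6, and the homozygous sample was high in Xist too. Both normal samples were low in Xist and read 8.32 and 8.15. Whether the spread among heterozygous tumors follows Xist was not tested. The other 2 probe sets, 1426185_at and 1451955_a_at, stayed between 2.82 and 3.43 in all samples and were not tested.

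Cacnb2, a beta subunit that binds the pore from inside the cell, was level across the groups. At 1456401_at it read 8.00 and 8.29 in normal pituitary, 8.31, 8.05, 8.22 and 8.16 in heterozygous samples and 8.08 in the homozygous one, and at 1452476_at 7.25 and 7.78, then 7.87, 7.61, 7.74 and 7.84, then 7.64. The tumor values lay within or close to the normal range at both. The log2 fold changes in heterozygous tumors were 0.04 (95% confidence interval -0.27 to 0.35) and 0.25 (-0.15 to 0.64), and in the homozygous sample -0.06 (-0.50 to 0.38) and 0.13 (-0.43 to 0.68).

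In the count of groups that did not overlap, heterozygous tumors and normal pituitary were apart at 11 of 20 probe sets, 8 higher and 3 lower, where 47.3% of all probe sets tested were apart (25.5% higher, 21.8% lower). Over genes it was 4 of 8, Cacna1a higher and Cacna1c, Cacna1d and Cacna1h lower, against 51.0% of all genes (25.3% higher, 25.7% lower). The share of the calcium channel genes was thus near that of all genes. At Cacna1h only normal arrays reached the overall median. At 1450510_a_at of Cacna1a and at 1441608_at and 1440397_at of Cacna2d1 only tumor arrays did.

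Between the genotypes none of the 8 genes and none of the 20 probe sets was called by limma, where 0.292% of all genes and 0.249% of all probe sets were. At an unadjusted p under 0.05 there were 2 genes and 4 probe sets, against 10.6% and 9.26% of all, the probe sets being 1430408_at and 1459996_at of Cacna1a, lower in the homozygous sample, and both of Cacna1c, higher in it. The one-way test of the study's methods, run over the 12 arrays, called 0 as well. The fit with the replicate number as a block, over the arrays numbered 1 and 2 of each group, called Cacna2d2, higher in the homozygous sample. It counted the 2 near-identical arrays of a tumor pair as separate samples. With 1 homozygous sample, which is assumed to vary like the other groups, these intervals are wide.

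Of 14 other channel subunit genes on the array, 8 were tested, and 1 was called in heterozygous tumors, where 10.1% of all genes were. Cacna2d3, a further alpha2delta subunit, read 6.21 and 6.41 in normal pituitary, 6.78, 7.78, 7.35 and 7.67 in heterozygous samples and 8.06 in the homozygous one, and no tumor value reached the normal ones. Its log2 fold change was 1.09 in heterozygous tumors (SE 0.27, limma adjusted p = 0.0280) and 1.76 in the homozygous sample (SE 0.38, adjusted p = 0.0629). Cacng4, a gamma subunit best known as a partner of glutamate receptors, differed by 0.98 in heterozygous tumors (adjusted p = 0.0108), under the fold limit, and by 0.11 in the homozygous sample. Cacng7, of the same family, differed by -0.46 (adjusted p = 0.0330). The median log2 fold change of the 8 was 0.22 in heterozygous samples and 0.06 in the homozygous one, beside -0.00 and -0.03 over all genes.

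Among 9 tested genes whose products bind or regulate the channels, 1 was called, lower in heterozygous tumors, where 10.1% of all genes were called (4.55% lower). Rimbp2, a scaffold that ties calcium channels to release sites, read 7.69 and 7.46 in normal pituitary, 6.50, 6.30, 6.51 and 6.38 in heterozygous samples and 7.01 in the homozygous one. The homozygous sample lay between the other groups, which did not overlap. The log2 fold change was -1.15 in heterozygous tumors (SE 0.12, limma adjusted p = 0.00118) and -0.56 in the homozygous sample (adjusted p = 0.153). Ncs1, a calcium sensor protein, differed by -0.81 (adjusted p = 0.00262) and Rem2, a small GTPase that inhibits these channels, by -0.59 (adjusted p = 0.0125) in heterozygous tumors, both under the fold limit.

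Of 16 tested genes for calcium stores, pumps and exchangers, 0 were called in either genotype by limma, against 2 in each at an unadjusted p under 0.05 and, by the one-way test, 0 in heterozygous samples and 1 in the homozygous one, with median log2 fold changes of 0.03 in heterozygous samples and -0.04 in the homozygous one. Of 6 tested sodium channel genes 1 was called in heterozygous tumors, where 10.1% of all genes were. The 6 include Nalcn, a leak channel that is not voltage-gated. The called gene was Scn3b, an auxiliary beta subunit. Scn3b read 6.80 and 6.93 in normal pituitary, 8.69, 8.31, 8.34 and 7.91 in heterozygous samples and 7.79 in the homozygous one, with all tumors above normal pituitary. Its log2 fold change was 1.45 in heterozygous tumors (SE 0.21, adjusted p = 0.00323) and 0.93 in the homozygous sample (adjusted p = 0.153). Scn2a (0.85, adjusted p = 0.0282), Scn8a (-0.71, adjusted p = 0.0225) and Scn3a (-0.55, adjusted p = 0.0122), pores of sodium channels, differed in heterozygous tumors under the fold limit. The median of the 6 was -0.02 in heterozygous tumors.

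**Figure D4:**
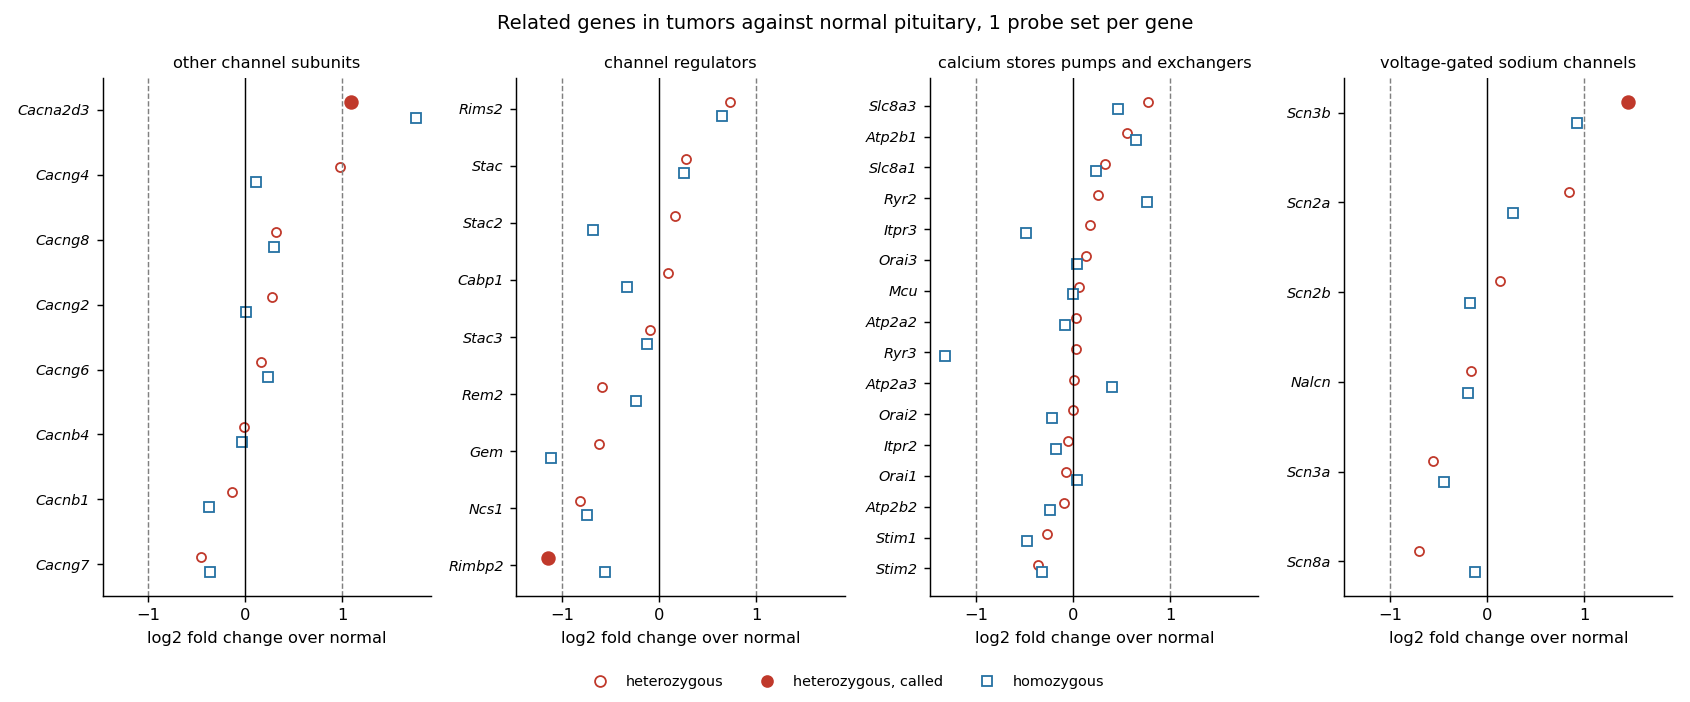
Log2 fold change against normal pituitary (x axis) of the tested genes (y axis) of 4 related lists, 1 probe set per gene. Circles are heterozygous tumors, filled where called, squares are the homozygous sample, and dashed lines mark a 2-fold change. Filled circles are Cacna2d3 and Scn3b, higher, and Rimbp2, lower.

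By the correlation over the 7 samples, the genes most like Cacna1a were Tfdp1 (Pearson's r 0.996), Galnt7 (0.993) and Wee1 (0.993), and those most like Cacna1h were Galnt16 (0.998), Dapl1 (0.998) and Susd4 (0.995). These are descriptions over 7 samples that share the contrast of tumor and normal tissue, and 251 genes had an r over 0.95 with Cacna1a and 357 with Cacna1h.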

How the data were processed

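Per the labels, total RNA was hybridized to Affymetrix arrays, and the deposited values are log2 signals that the authors obtained by Robust Multichip Average (RMA) in Affymetrix Expression Console. The study's methods name GeneSpring for the same step. Arrays give no read depth, and the number of samples limits the precision. Image files and detection calls were not used here. The annotation gave 34945 probe sets 1 gene, 932 several and 9160 none, beside 64 controls, and symbols were updated by gene ID for 34754. Tumor arrays were averaged in 5 pairs inferred from their likeness. A model in limma 3.58.1 (R 4.3.3) over 7 samples in 3 groups, with Benjamini-Hochberg adjustment over 24486 probe sets, was checked on simulated data. All 10 genes are named, of the other channel lists those called, with those at an adjusted p under 0.05 added after their values were seen, and for the most raised and most lowered member the 3 genes most correlated with it. Members and lists were chosen with earlier results of these data known. Alternatives covered the unit of replication, filter, normalization, probe set choice, Xist as a covariate, test, threshold, samples left out and the replicate block.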

Additional observations from a re-analysis of the deposited data

Results flagged for a closer look

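In 2 of 27 sets of heterozygous values, pair 3-4 stood apart from the other 3 samples by Dixon's ratio. At Cacna1b 1436602_x_at it read 7.57 (ratio 0.854), above the others, and at Cacna2d2 1426185_at, which was not tested, it read 2.90 (ratio 0.877), below them. Chance gives about 1 in 20 such sets.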

How the results depend on the processing

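The call of Cacna1h in heterozygous tumors was kept wherever it was tested, and no result reversed. Counts of called members moved as follows. In heterozygous tumors against normal pituitary the 2 genes became 1, Cacna1h, with repeated quantile normalization, housekeeping centring or the median over probe sets, and the 4 probe sets became 2 with housekeeping centring and 7 with Xist as a covariate or with no limit on the fold change. In the homozygous sample the 1 probe set became 3 with the 12 arrays as separate samples, 2 with the pair as a random block, 3 with the one-way test and 3 with the replicate block. The stricter filter, a value of 7 in at least 2 arrays, left 5 genes and 10 probe sets, not Cacna1a or Cacna1h among the genes, and called 0 in each comparison with normal pituitary. Leaving out each sample in turn gave 1 to 2 genes and 1 to 5 probe sets in heterozygous tumors, the lowest without normal array 2 and the highest without heterozygous pair 7-8, and 0 to 1 genes and 0 to 1 probe sets in the homozygous sample.

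Arrays numbered 1 and 2 in each group showed no shared deviation (correlations of 0.0677, -0.0229 and -0.0026), so the numbers do not pair the groups. The replicate block over these arrays called Cacna2d2 between the genotypes (log2 difference 1.12), which was called in 1 of 15 settings. This fit used 1 heterozygous pair alone and counted the 2 near-identical arrays of a tumor pair as separate samples, so it holds no spread between tumors. It left the 2 genes called in heterozygous tumors. Of 359 recomputed fold changes of member genes 351 kept their side of the threshold, 7 lost and 1 gained a call, and 17 changed sign, all uncalled and within 1 standard error of 0 (at most 0.23 in size). With housekeeping centring the median over all probe sets moved from 0.01 to -0.14 in the homozygous sample. Pgk1, among the genes used for centring, itself averaged 11.93 in normal pituitary and 12.56 in the homozygous sample. The cause of these moves was not tested, and 4 residual degrees of freedom, 1 homozygous sample and low signals for Cacna1h, Cacna1e and Cacna1g limit the precision.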
